A study of Mus musculus with 8 samples.

Results

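The transcription factor ATF4 switches on genes that make, import and charge amino acids. Here 37 such targets were followed in neurons labelled as double-knockout for a pair of translation initiation factor genes, and in their wildtype control. The members were chosen by name as known ATF4 targets, with earlier results of these data known, and fall into 5 groups by role: amino acid synthesis, mitochondrial one-carbon enzymes, amino acid transporters, cytosolic tRNA synthetases, and stress regulators with other targets. Of the 37, 36 were found among the 18301 genes of the deposited table, and all 36 were among the 12898 genes that passed the filter on low counts; Cebpb was not analysed here. The filter can be passed through the libraries of 1 genotype alone, but 35 of the members had at least 19 counts in every library, and Nupr1 had as few as 7.

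The cells were mouse neurons, labelled cortical and glutamatergic, at day 8 in vitro in Neurobasal-A medium with B27, differentiated from CGR8 embryonic stem cells. The mutant genotype was labelled Eif4g1/Eif4g3 double-knockout (DKO) and its control wildtype (WT); both genes encode scaffolds of the complex that loads ribosomes onto capped mRNA. Ribosome footprints, the mRNA pieces that ribosomes shield, and total RNA were sequenced from each genotype, with 2 libraries in each of 4 groups: DKO footprints, WT footprints, DKO RNA and WT RNA. All groups share the cell line, the differentiation and a block of translation with cycloheximide (100 µg/ml, 5 minutes), given as the protocol of all samples. In the sample descriptions WT replicate 1 and the DKO cultures carry numbered codes and WT replicate 2 carries the code WT; whether each code is 1 clone is not stated. The 8 libraries stand for 4 cultures, and nothing in the labels says that cultures of 1 genotype were differentiated separately, so a p-value here gauges only how far these particular libraries scatter, which may be technical.

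Total depth was 10490535 and 18381021 estimated counts in DKO footprints, against 19753419 and 14450410 in WT footprints; in RNA it was 44786643 and 15862034 in DKO, against 14762047 and 22352224 in WT. Whole-gene levels of Eif4g1 were 153.8 and 287.5 CPM (counts scaled to a common library size) in DKO footprints, against 299.8 and 263.0 CPM in WT footprints, and 125.4 and 304.9 CPM in DKO RNA, against 288.3 and 279.9 CPM in WT RNA. Eif4g1 was thus low in DKO replicate 1 and not in DKO replicate 2. Eif4g3 ranged from 164.5 to 172.5 CPM in DKO footprints, against 153.3 to 168.6 CPM in WT footprints. A gene's total does not show the loss of a single exon, so it does not check the genotype label, and DKO below means the libraries so labelled.

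ATF4 is made when a stress kinase phosphorylates the initiation factor eIF2: global initiation slows, while reading frames upstream in the Atf4 mRNA let the main frame be translated more. Amino acid shortage, misfolded protein, viral RNA and lack of heme each act through their own kinase. ATF4 then pairs with C/EBP proteins at composite DNA elements and drives amino acid supply, the mitochondrial folate cycle and stress regulators, some of which end the response. In neurons the same programme is known from axon injury and mitochondrial stress.

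The composite element was searched in the promoters as TGATGNAA, its core, on both strands, in windows of 250 bases before to 50 bases after each annotated start (RefSeq, GRCm38.p6). Of the 36 members, 29 had a promoter in the table and 13 of these (44.8%) held the core, against 287 of 10171 tested genes with a promoter (2.8%). Counted by promoter, 13 of 34 member promoters (38.2%) held it, against 1304 of all 32851 promoters (4.0%). The list consists of known ATF4 targets, so these shares describe it and test nothing. The 6 shown, so that the sites can be compared, hold the core before the start and belong to the members picked by their place in the p-values or in footprints minus RNA. Aars, Tars, Nupr1 and Vldlr hold it before the start as well but were not so picked. In Slc1a4 it lies across the start, and in Iars and Trib3 after it. The sequences shown run 5′ to 3′ on the gene's strand, with the match in capitals (the reverse complement where the match lies on the other strand). They have 30 flanking bases, ending at the start site where that comes first.
Asns, chr6:7693210-7693262, minus strand: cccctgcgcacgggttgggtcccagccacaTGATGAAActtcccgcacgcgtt
Atf3, chr1:191183406-191183473, minus strand: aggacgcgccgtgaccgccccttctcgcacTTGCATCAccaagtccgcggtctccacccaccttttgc
Chac1, chr2:119351019-119351086, plus strand: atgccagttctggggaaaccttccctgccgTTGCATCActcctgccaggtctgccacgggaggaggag
Pycr1, chr11:120643814-120643881, minus strand: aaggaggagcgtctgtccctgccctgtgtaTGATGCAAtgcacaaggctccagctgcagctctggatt
Gars, chr6:55037941-55038000, plus strand: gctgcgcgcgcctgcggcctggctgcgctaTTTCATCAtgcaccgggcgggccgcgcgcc
Slc7a11, chr3:50443623-50443709, minus strand: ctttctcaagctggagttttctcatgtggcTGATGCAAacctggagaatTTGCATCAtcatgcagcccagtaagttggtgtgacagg
The core begins 23 bases before the start in Asns, 30 in Gars, 66 in Slc7a11, 103 in Pycr1, 110 in Atf3 and 193 in Chac1. Slc7a11 holds it on both strands, in 2 separate copies. Outside the members, 274 tested genes held the core, and their median log2 fold change (DKO over WT) was 0.02 in footprints and 0.01 in RNA. Members with the core had medians of 0.26 and 0.16, and the 16 members with a promoter but without it had 0.20 and 0.15.

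In footprints, the members had mostly higher values in DKO than in WT, by small amounts, and none passed the test. The log2 fold change (DKO over WT) was above 0 in 32 of 36 members, against 50.8% of all genes tested, with a median of 0.21 against 0 over all genes. Both DKO libraries lay above both WT libraries in 25 members (16.3% of all genes) and below them in 0 (16.2% of all genes). By edgeR's quasi-likelihood test at an adjusted p under 0.05, 0 members were called higher (0.00775% of all genes, which is 1 gene) and 0 lower (0%). At an unadjusted p under 0.05, 13 members were higher (2.83% of all genes) and 0 lower (2.79%). The smallest edgeR adjusted p of a member was 0.836. DESeq2 called 1 member, Slc7a3. Without both libraries of WT replicate 1, edgeR called 4 members (Asns, Slc3a2, Slc7a1 and Slc7a3), and the number of all genes called was 520, with a single WT library left in each assay and assumed to vary like the others.

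Total RNA had the same direction with smaller values. The log2 fold change was above 0 in 28 of 36 members (49.6% of all genes), with a median of 0.15 against 0. DKO libraries lay above both WT libraries in 24 members (19.6% of all genes) and below both in 2, Phgdh and Cth (18.9%). In 21 members the DKO libraries lay above WT in both assays (7.05% of all genes), and in 0 they lay below in both (6.69%). The edgeR test called 0 members higher (0.0155% of all genes, which is 2 genes) and 0 lower (0%), and DESeq2 called 0. At an unadjusted p under 0.05, 10 members were higher (2.4% of all genes) and 0 lower (3.18%). Without both libraries of WT replicate 1, edgeR called 1 member, Slc7a3, among 473 genes. The footprints and RNA of a culture are not independent, so the assays do not count as separate evidence.

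**Figure D1:**
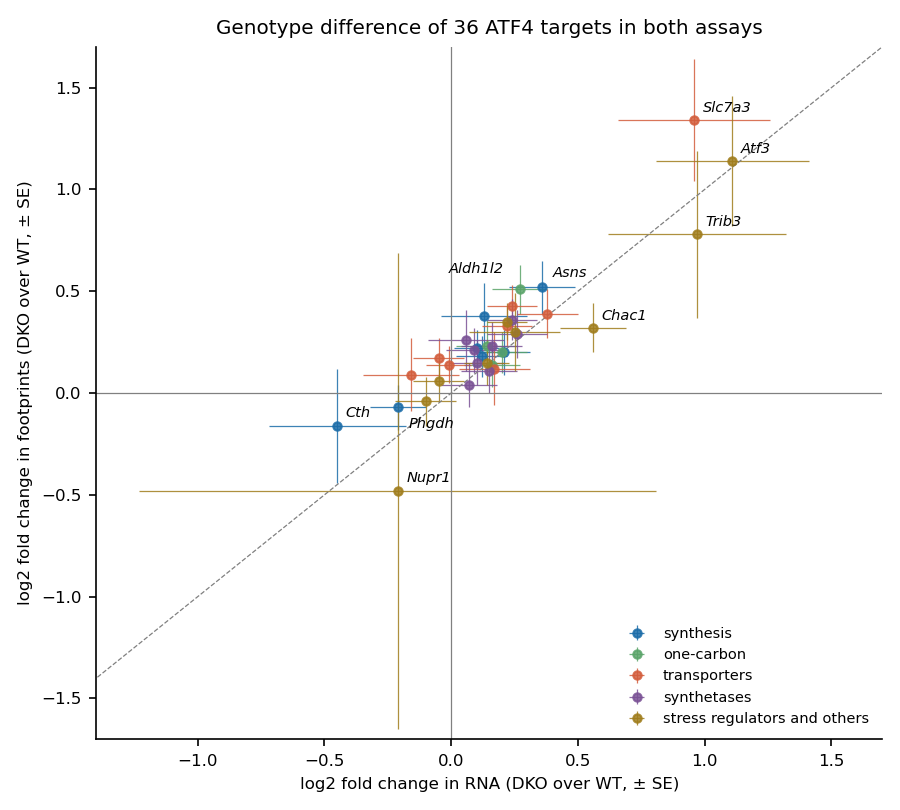
Log2 fold change of DKO over WT in footprints (vertical axis) against RNA (horizontal axis) for the 36 members, coloured by role, with bars of ±1 SE; the dashed line marks equal change. Most members sit just above and to the right of the origin, Slc7a3 and Atf3 lie farthest out at 1.34 and 1.14 in footprints, and none passed the test.

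Amino acid synthesis was represented by 7 enzymes, 5 of which had footprint and RNA values above 0, with medians of 0.20 in footprints and 0.12 in RNA. Asns, which makes asparagine and is the textbook ATF4 target, had 307.5 and 263.6 CPM in DKO footprints, against 221.9 and 175.8 CPM in WT footprints. In RNA it had 147.1 and 151.2 CPM in DKO, against 122.6 and 110.0 CPM in WT. No DKO library overlapped WT in either assay, and the log2 fold change was 0.52 ± 0.13 (SE) in footprints and 0.36 ± 0.13 in RNA (edgeR adjusted p = 0.836 and 0.851). Pycr1 and Aldh18a1 catalyse the last and the first dedicated steps from glutamate to proline. Pycr1 had 14.57 and 13.83 CPM in DKO footprints, against 11.44 and 10.39 CPM in WT footprints, with a log2 fold change of 0.38 ± 0.16, and one of 0.13 ± 0.17 in RNA. Aldh18a1 had 52.98 and 50.36 CPM in DKO footprints, against 46.14 and 42.65 CPM in WT footprints (0.22 ± 0.09), and 0.10 ± 0.09 in RNA. Its footprint values rest in part on an isoform annotated as a retained intron, described further on; with protein-coding isoforms alone the footprint log2 fold change was 0.09. Neither proline enzyme overlapped between genotypes.

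The serine pathway was less uniform. Psph, its last enzyme, had 39.03 and 39.48 CPM in DKO footprints, against 36.28 and 31.83 CPM in WT footprints, with log2 fold changes of 0.20 ± 0.11 in footprints and 0.21 ± 0.10 in RNA. Psat1, the middle enzyme, had a log2 fold change of 0.18 ± 0.10 in footprints and 0.12 ± 0.10 in RNA. Phgdh, which commits glycolytic carbon to serine and is known as abundant in astrocytes and radial glia, had 211.7 and 202.4 CPM in DKO footprints, against 206.7 and 228.5 CPM in WT footprints. Its RNA stood at 84.20 and 95.66 CPM in DKO, against 97.72 and 110.2 CPM in WT, a log2 fold change of -0.21 ± 0.11 with DKO below WT. Cth, which makes cysteine from cystathionine, likewise had lower RNA values in DKO, at 2.724 and 3.974 CPM against 4.857 and 4.159 CPM in WT (-0.45 ± 0.27); its footprints overlapped. Beside these, the 12 markers of astrocytes and radial glia summed to 2991 and 3050 CPM in DKO RNA, against 3407 and 3827 CPM in WT RNA. Fabp7 made up 1694 and 1643 CPM of this in DKO, against 2011 and 1996 CPM in WT, and the other 11 overlapped, at 1297 and 1407 CPM in DKO, against 1396 and 1830 CPM in WT.

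The mitochondrial one-carbon enzymes turn serine into glycine, formate and reduced folate, and all 4 had values above 0 in both assays. Aldh1l2, which oxidises formyl-folate and yields NADPH, had 36.95 and 32.57 CPM in DKO footprints, against 23.27 and 25.50 CPM in WT footprints. Its RNA was 48.77 and 42.48 CPM in DKO, against 35.85 and 39.91 CPM in WT, and the log2 fold changes were 0.51 ± 0.12 and 0.27 ± 0.11. Aldh1l2 did not overlap between genotypes in either assay. Shmt2, which splits serine, had 40.28 and 39.01 CPM in DKO footprints, against 34.65 and 34.52 CPM in WT footprints, and 20.34 and 19.46 CPM in DKO RNA, against 17.45 and 17.34 CPM in WT RNA (0.20 ± 0.10 in each assay). The replicates of Shmt2 were close enough that the genotypes stood apart in both assays at this small difference. Mthfd1l, which releases formate, had 21.54 and 18.20 CPM in DKO footprints, against 17.58 and 16.13 CPM in WT footprints (0.23 ± 0.13), and Mthfd2, the dehydrogenase before it, had 0.14 ± 0.11 with overlapping footprints.

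All 8 transporters had footprint values above 0, and 5 had RNA values above 0. Slc7a3, a carrier of arginine and lysine (gene at chrX:101079210-101086020, minus strand, GENCODE M21, GRCm38), had the largest log2 fold change of all members in footprints. It stood at 34.24 and 25.53 CPM in DKO footprints, against 14.82 and 8.429 CPM in WT footprints. In RNA it stood at 14.87 and 10.52 CPM in DKO, against 7.477 and 5.848 CPM in WT. Although the genotypes did not overlap, replicates differed among themselves by -0.42 (DKO replicate 2 minus 1) and -0.81 (WT replicate 2 minus 1) on the log2 scale in footprints. The log2 fold change was 1.34 ± 0.30 in footprints and 0.96 ± 0.30 in RNA, with edgeR adjusted p of 0.836 and 0.851; DESeq2 gave 1.35 in footprints with an adjusted p of 0.00297. Without either library of WT replicate 1 the footprint value was 1.83 (adjusted p = 0.00907).

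Slc3a2 and Slc7a5 form the heavy and light chain of the exchanger that brings in leucine and other large neutral amino acids. Slc3a2 had 189.1 and 178.9 CPM in DKO footprints, against 142.1 and 130.3 CPM in WT footprints (0.43 ± 0.10), and 61.34 and 63.17 CPM in DKO RNA, against 48.70 and 56.67 CPM in WT RNA (0.24 ± 0.10). Slc7a5 had 216.6 and 236.8 CPM in DKO footprints, against 194.0 and 166.2 CPM in WT footprints (0.33 ± 0.10), and a log2 fold change of 0.22 ± 0.10 in RNA. Both chains stood apart between genotypes in both assays. Slc7a1, another carrier of cationic amino acids, had 98.05 and 89.43 CPM in DKO footprints, against 81.02 and 61.26 CPM in WT footprints (0.39 ± 0.12). Its RNA was 70.17 and 73.28 CPM in DKO, against 55.98 and 54.57 CPM in WT (0.38 ± 0.12). The remaining transporters had smaller values: the cystine carrier Slc7a11 had 4.684 and 4.374 CPM in DKO footprints, against 3.775 and 4.578 CPM in WT footprints, which overlapped (0.12 ± 0.18). Slc6a9, the glycine transporter, had 99.09 and 96.05 CPM in DKO footprints, against 85.41 and 91.63 CPM in WT footprints (0.14 ± 0.09), and no RNA difference beyond its error (-0.01 ± 0.09). The neutral amino acid carriers Slc1a4 and Slc1a5 had 0.17 ± 0.10 and 0.09 ± 0.18 in footprints, and -0.05 ± 0.10 and -0.16 ± 0.19 in RNA.

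**Figure D2:**
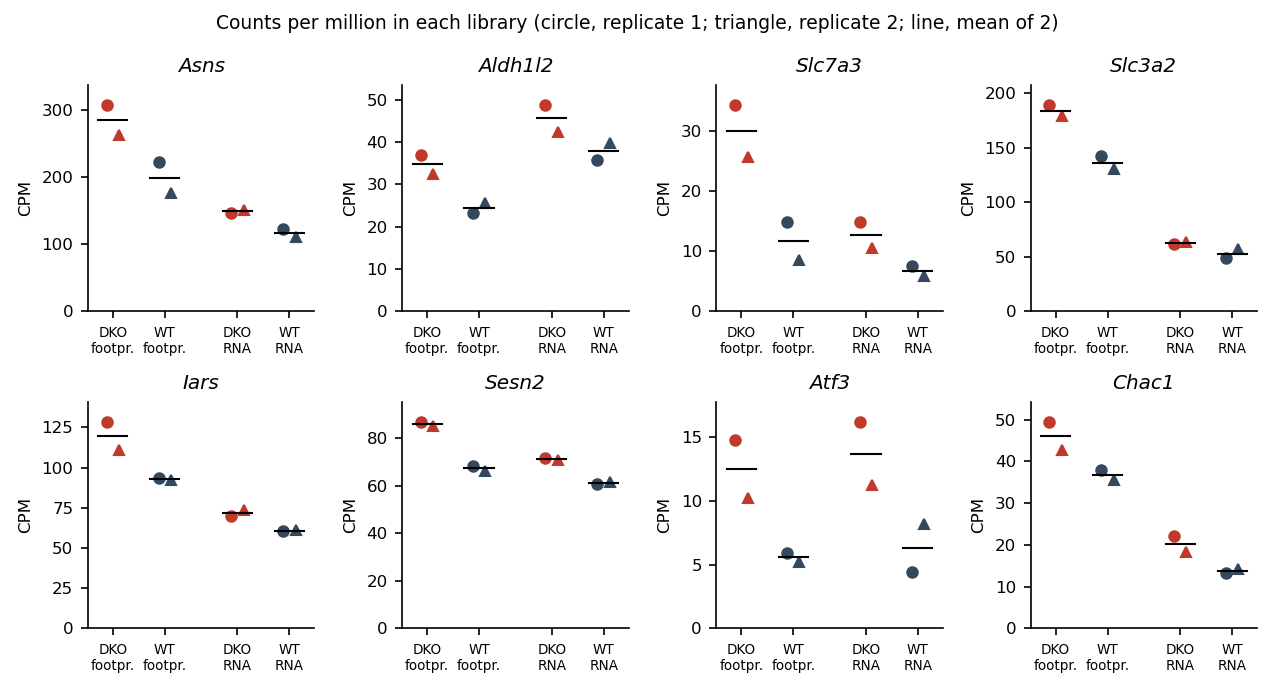
CPM in every library for 8 members named by the rule, with DKO in red left of WT in blue within footprints and within RNA; circles are replicate 1, triangles replicate 2, and lines the mean of 2 libraries. In all 8 members both DKO libraries lie above both WT libraries in each assay, as in 21 of 36 members and 7.05% of all genes. The 8 were chosen among members named for small p in these same contrasts, so their separation describes the choice. Slc7a11 and Slc6a9, named for footprints minus RNA and not shown, overlap in footprints and in RNA respectively. The replicates of Slc7a3 and Atf3 lie far apart.

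The 8 cytosolic tRNA synthetases join amino acids to their tRNAs, and all had values above 0 in both assays, with medians of 0.22 in footprints and 0.12 in RNA. Iars, which charges isoleucine, had 128.1 and 111.2 CPM in DKO footprints, against 93.58 and 92.50 CPM in WT footprints, and 70.07 and 73.81 CPM in DKO RNA, against 60.33 and 60.99 CPM in WT RNA. The genotypes stood apart in both assays, and the log2 fold changes were 0.36 ± 0.10 and 0.24 ± 0.10. Sars, for serine, had 493.6 and 391.5 CPM in DKO footprints, against 374.8 and 350.5 CPM in WT footprints (0.29 ± 0.12), and 0.26 ± 0.12 in RNA. Gars, for glycine, had 520.7 and 445.5 CPM in DKO footprints, against 438.9 and 383.0 CPM in WT footprints (0.23 ± 0.12), and 0.16 ± 0.12 in RNA. In both, DKO replicate 1 was the highest footprint library and DKO replicate 2 lay near WT replicate 1. The other 5 ran in footprints from 0.04 ± 0.11 for Eprs, which charges glutamate and proline, to 0.26 ± 0.15 for Aars, which charges alanine; the footprints of Eprs, Nars and Wars overlapped.

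Of the 9 stress regulators and other targets, 7 had footprint values and 6 RNA values above 0, with medians of 0.30 and 0.22. Atf3, a stress-induced transcription factor, had 14.78 and 10.23 CPM in DKO footprints, against 5.916 and 5.232 CPM in WT footprints. In RNA it had 16.14 and 11.22 CPM in DKO, against 4.410 and 8.195 CPM in WT. The genotypes did not overlap, but the WT RNA libraries differed by 0.88 on the log2 scale, and the log2 fold changes were 1.14 ± 0.32 and 1.11 ± 0.30. Chac1, which degrades glutathione, had 49.33 and 42.67 CPM in DKO footprints, against 37.97 and 35.53 CPM in WT footprints (0.32 ± 0.12). Chac1 RNA stood at 22.20 and 18.23 CPM in DKO, against 13.36 and 14.17 CPM in WT, and its 0.56 ± 0.13 had the smallest RNA p of the members (unadjusted p = 0.000965, edgeR adjusted p = 0.655). Sesn2, which holds back the growth kinase mTORC1 when leucine is short, had 86.80 and 85.29 CPM in DKO footprints, against 68.45 and 66.34 CPM in WT footprints. Its RNA was 71.61 and 70.94 CPM in DKO, against 60.84 and 61.65 CPM in WT. Sesn2 had some of the tightest replicates of the list, and log2 fold changes of 0.35 ± 0.09 and 0.22 ± 0.08.

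Trib3, a pseudokinase that dampens ATF4 and is induced by it, had few footprints: 2.810 and 1.950 CPM in DKO, against 1.070 and 1.671 CPM in WT, from 19 to 33 counts a library (0.78 ± 0.41). Its RNA was 5.325 and 3.798 CPM in DKO, against 1.662 and 2.965 CPM in WT (0.97 ± 0.35). Cebpg, a partner with which ATF4 binds DNA, had 20.09 and 18.62 CPM in DKO footprints, against 17.30 and 17.44 CPM in WT footprints, and 70.32 and 63.52 CPM in DKO RNA, against 58.86 and 62.60 CPM in WT RNA (0.15 ± 0.11 and 0.14 ± 0.09). Stc2, a secreted glycoprotein, had 0.30 ± 0.19 in footprints and 0.25 ± 0.18 in RNA. The mTORC1 inhibitor Ddit4 had -0.04 ± 0.12 and -0.10 ± 0.12, and Vldlr, a lipoprotein and reelin receptor, had 0.06 ± 0.10 and -0.05 ± 0.10, with overlapping libraries.

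Nupr1, a small stress-induced chromatin protein, differed more between cultures than between genotypes. It had 1.769 and 0.6502 CPM in DKO footprints, against 0.5634 and 2.689 CPM in WT footprints, and 1.823 and 0.4675 CPM in DKO RNA, against 0.4474 and 2.306 CPM in WT RNA. DKO replicate 1 and WT replicate 2 were high and the other two cultures low, in both assays. The same 2 cultures were the highest in the summed footprints of 10 fibroblast and vascular markers: 582.9 and 191.2 CPM in DKO, against 347.3 and 932.6 CPM in WT. Nupr1 counts were 10 to 37 in footprints and 7 to 89 in RNA, and the log2 fold changes were -0.48 ± 1.17 and -0.21 ± 1.02. The part of these cells in the Nupr1 values was not tested.

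**Figure D3:**
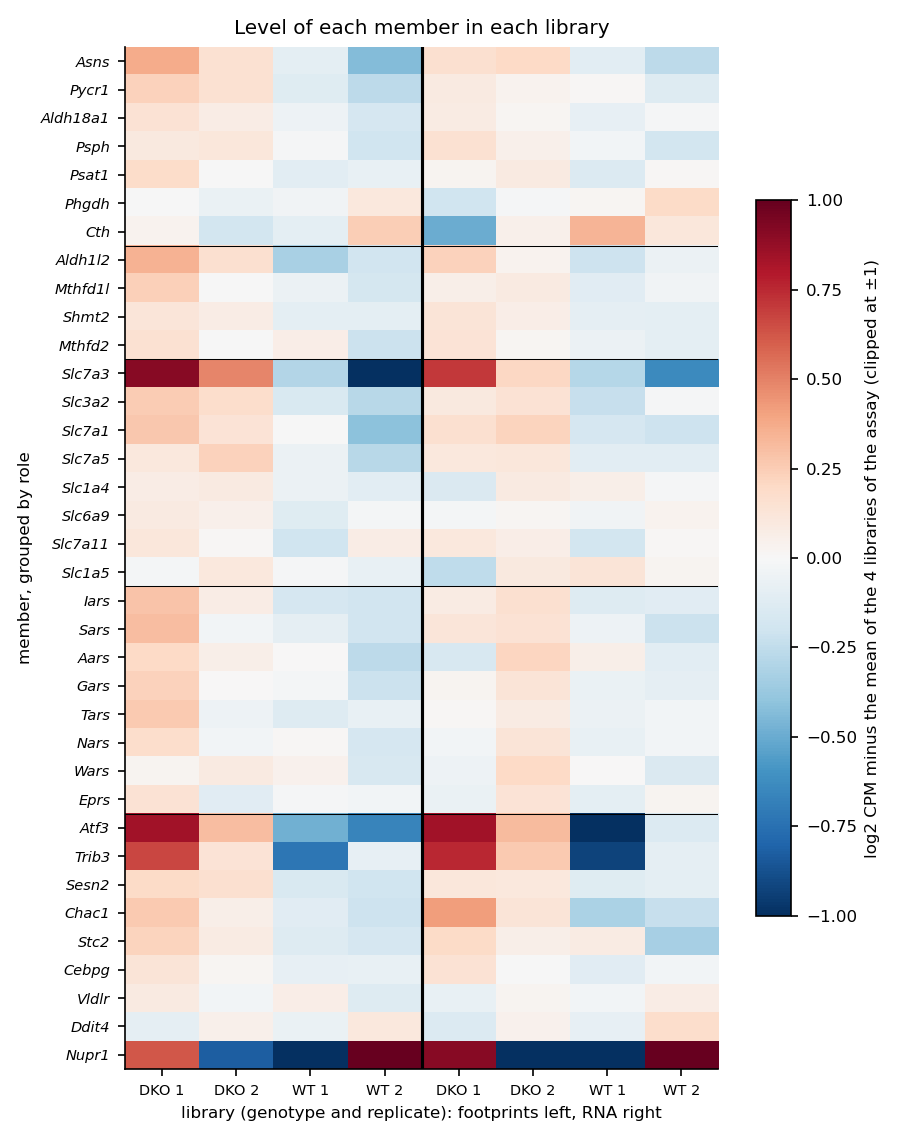
Log2 CPM of each member minus its mean over the 4 libraries of the assay (colour, clipped at ±1), with members down the page by role and libraries across, footprints left and RNA right of the thick line. DKO replicate 1 is the highest footprint library in 27 of the 36 members and WT replicate 2 the lowest in 24.

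The cultures of a genotype also differed from each other over the members. DKO replicate 1 was the highest footprint library in 27 of 36 members (25.9% of all genes) and WT replicate 2 the lowest in 24 (36% of all genes). The median deviation of the members from their mean was 0.185 and 0.067 (log2) in DKO footprints, against -0.093 and -0.167 in WT footprints. In RNA it was 0.094 and 0.093 in DKO, against -0.089 and -0.075 in WT, so that the medians of each genotype lay closer together there. Opposite differences cancel in such a median. DKO replicate 2 was above replicate 1 in 21 members and below in 15 in RNA, against 6 and 30 in footprints. WT replicate 2 was above replicate 1 in 20 members and below in 15 in RNA, against 11 and 25 in footprints. The genotype difference of a member exceeded both replicate differences in 19 of 36 members in footprints (18.6% of all genes) and in 20 in RNA (23.6% of all genes).

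Cell type markers were set beside these comparisons. In bulk samples fewer cells of a type and less RNA per cell cannot be told apart. All 9 tested proliferation markers and all 9 tested oligodendrocyte markers had footprint log2 fold changes below 0 (medians -0.41 and -0.29). Of all 12898 genes tested, 6348 were below 0. Proliferation markers summed to 454.0 and 451.0 CPM in DKO footprints, against 512.7 and 624.8 CPM in WT footprints, and oligodendrocyte markers to 718.8 and 772.6 CPM in DKO, against 908.5 and 1113 CPM in WT. Of 12 astrocyte and radial glia markers, 9 were below 0, with sums of 4830 and 5194 CPM in DKO footprints, against 5706 and 6292 CPM in WT footprints. Without Fabp7, the most abundant of them, the other 11 summed to 1962 and 1934 CPM in DKO, against 1937 and 2584 CPM in WT, so the genotypes overlapped and WT replicate 2 alone was high. All 9 tested fibroblast and vascular markers were below 0, with a median of -0.61 and a median SE of 0.97. None of these markers was called, and none was at 0 in the footprints of a library; their part in the members' values was not tested. Of the 8 glutamatergic and neuronal markers tested, 5 were above 0 in footprints, with a median of 0.07. Slc17a6, the farthest from 0 among them, stood at 234.2 and 193.6 CPM in DKO footprints, against 165.7 and 74.33 CPM in WT footprints. Slc17a7 and Tbr1 did not pass the filter. Slc17a7 was at 0.2082 CPM or less in DKO footprints, against 0.2180 CPM or less in WT footprints. Tbr1 was at 0.3122 CPM or less in DKO footprints, against 0.2180 CPM or less in WT footprints. Neurod2 and Neurod6 were low, at 2.761 and 3.778 CPM or less in every footprint library. Of 6 GABAergic markers, 3 passed the filter: Gad1, Gad2 and Slc32a1. Gad1 stood at 183.3 and 173.2 CPM in DKO footprints, against 189.4 and 179.8 CPM in WT footprints. Dlx1, Dlx2 and Dlx5 did not pass, at 1.239 CPM or less in every footprint library. Footprint log2 fold changes were -0.05 ± 0.11 for Gad1, -0.15 ± 0.11 for Gad2 and -0.03 ± 0.13 for Slc32a1. The GABAergic markers thus differed in level, with some plainly present and the Dlx genes near absent. Whether the cultures were cortical or purely glutamatergic was not tested.

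Footprints relative to RNA, called translational efficiency, gave no member that passed the test between the genotypes. The edgeR interaction test called 0 members and 0 of all genes in either direction (0%). At an unadjusted p under 0.05 it found 0 members, with 0.411% of all genes higher and 0.442% lower, and DESeq2 called 0 members and 1 gene. The log2 difference was above 0 in 27 of 36 members (53.1% of all genes), with a median of 0.08 against 0.01. It ran from -0.27 ± 1.55 for Nupr1 to 0.38 ± 0.42 for Slc7a3, and stood at 0.16 ± 0.18 for Asns and -0.24 ± 0.18 for Chac1. Without the footprints of DKO replicate 1 the median of the members was 0.00 and 18 of 36 were above 0. The median SE of a member was 0.16, larger than the median difference.

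Other genes of the eIF2 and ATF4 response and neighbouring pathways were examined by the same fit. Some of these response genes act upstream of ATF4, and others, such as Ddit3 and Ppp1r15a, do not. Atf4 itself had 214.9 and 235.9 CPM in DKO footprints, against 178.9 and 210.6 CPM in WT footprints (0.21 ± 0.12), and 219.1 and 183.6 CPM in DKO RNA, against 166.2 and 155.1 CPM in WT RNA (0.33 ± 0.12, edgeR adjusted p = 0.851). Its translational efficiency differed by -0.12 ± 0.17. Ddit3, which encodes the pro-death factor CHOP, was the only one of these 16 response genes called. It had 70.48 and 60.89 CPM in DKO RNA, against 37.19 and 38.14 CPM in WT RNA, and rose by 0.81 ± 0.10 on the log2 scale (adjusted p = 0.0291). The call was lost in 11 of 18 alternatives, in the fit with protein-coding isoforms alone (0.83, adjusted p = 0.0945) and without either DKO culture or WT replicate 2 among others, and the value stayed between 0.69 and 0.94. Ddit3 footprints stood at 53.39 and 48.88 CPM in DKO, against 29.52 and 29.57 CPM in WT (0.79 ± 0.10, adjusted p = 0.0572). The footprint difference was called by DESeq2 (adjusted p = 0.000242), with no filter on low counts (0.016) and without WT replicate 1 in both assays (0.00968), and in none of the other 15 alternatives. Ppp1r15a, whose product returns eIF2 to its active form, had 30.50 and 27.84 CPM in DKO footprints, against 22.59 and 17.73 CPM in WT footprints (0.52 ± 0.15), and 0.63 ± 0.14 in RNA (adjusted p = 0.564).

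By list, the genes of the eIF2 and ATF4 response had 11 of 16 footprint values above 0 and 12 of 16 RNA values above 0. Their median was 0.07 in each assay. Of 12 other cytosolic synthetases, 10 were above 0 in each assay, with medians of 0.17 in footprints and 0.09 in RNA, so the synthetases outside the list had values much like those in it. The 16 tested mitochondrial synthetases, which charge tRNAs inside mitochondria, had medians of 0.03 and 0.04. The 12 chaperones and folding genes of the ATF6 and XBP1 arms of the unfolded protein response had medians of 0.01 and -0.02, with 6 above 0 in each assay. The edgeR test called 0 genes of the last 3 lists in either genotype contrast; at an unadjusted p under 0.05 the counts were 3, 0 and 2 in footprints and 1, 0 and 2 in RNA.

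**Figure D4:**
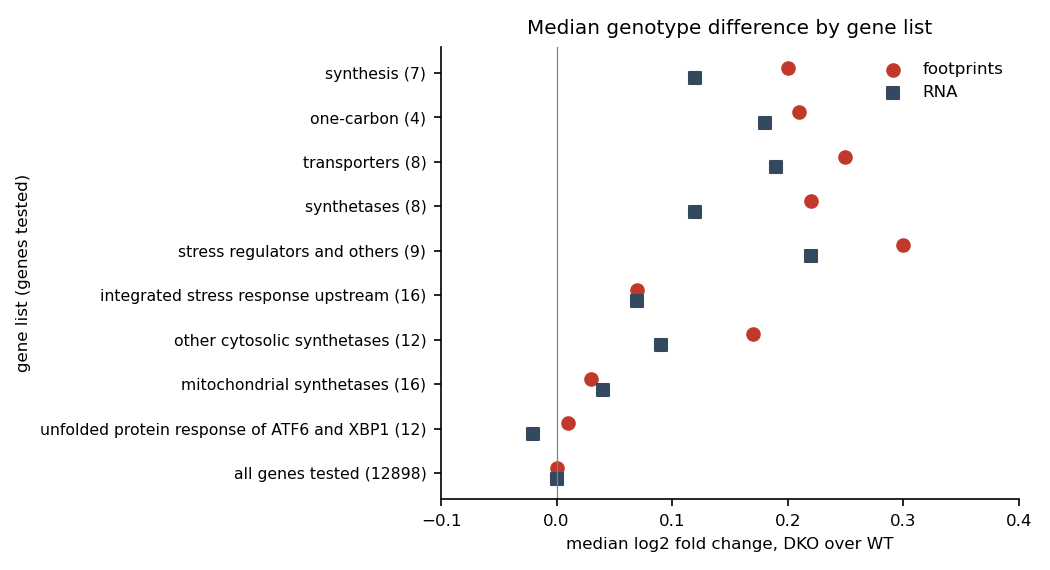
Median log2 fold change of DKO over WT for each role group, the pathway lists and all genes tested (number tested in brackets), with circles for footprints and squares for RNA. The 5 role groups lie between 0.20 and 0.30 in footprints, and the mitochondrial synthetases and the unfolded protein response at 0.03 and 0.01. The list labelled as upstream also holds genes that do not act upstream of ATF4, such as Ddit3 and Ppp1r15a.

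Across both genotypes, most members had more footprints for their RNA than the typical gene, to which the scaling sets the zero. The edgeR test called 24 of 36 members higher in footprints than in RNA (36.5% of all genes) and 5 lower (38.2%), and DESeq2 gave the same numbers. The median log2 difference (footprints minus RNA, mean of DKO and WT) was 0.64 for the members and -0.01 for all genes. All 7 transporters other than Slc7a11, and 7 of 8 synthetases, were higher; Eprs was the exception at -0.09 ± 0.08. Slc6a9 was highest at 1.58 ± 0.06 and Slc3a2 next at 1.47 ± 0.07. Slc7a11 was lowest at -2.14 ± 0.11, followed by Cebpg at -1.80 ± 0.07 (adjusted p of these 4 between 1.41e-09 and 1.14e-08). Trib3, Aldh1l2 and Vldlr were lower as well, at -0.89 ± 0.27, -0.52 ± 0.08 and -0.47 ± 0.07. The call of Trib3 was lost on leaving out the footprints of DKO replicate 2, the RNA of DKO replicate 1, the RNA of WT replicate 2 or either DKO culture (-0.86 to -0.64), and that of Sesn2 (0.20 ± 0.06) on leaving out either DKO culture. Psph was not called at 0.18 ± 0.08 (adjusted p = 0.0515), but was in 6 of 17 alternatives. These were RLE scaling (0.0391), no filter (0.0221), protein-coding isoforms alone (0.0184), the culture as a replicate block (0.0257), and leaving out the footprints of WT replicate 2 (0.0204) or the RNA of WT replicate 1 (0.0293), with the adjusted p in brackets.

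Some of these values changed with the isoforms counted. Footprints come from coding sequence, and RNA reads from the whole transcript. The main RNA isoform of Slc7a11, as of Slc7a3, holds no annotated coding sequence, and that of Cebpg is 9.6% coding, against a median of 50.3% over the members and 48.7% over all genes. Over the 12898 genes tested the difference and the coding share had a Spearman rho of 0.27, and over the 36 members 0.32, as descriptions only, since genes share libraries and isoform assignment. Genes whose main isoform was at most 20% coding had a median difference of -0.54, and those 80 to 100% coding had 0.23. Slc7a3 stood at 1.02 with all isoforms, and Cebpg stayed between -1.83 and -1.75 over the alternatives. The part of the coding share in the members' values was not tested. In Aldh18a1, an isoform annotated as a retained intron took 53.7% of the footprint counts and 1.3% of the RNA counts. With protein-coding isoforms alone, Aldh18a1 was reversed, at -0.85 against 0.54 with all isoforms (adjusted p = 5.51e-05 and 1.25e-05). In Atf3 a processed transcript took 82.5% of the footprints and 8.1% of the RNA, and the difference was -2.66 with protein-coding isoforms (adjusted p = 5.36e-06) and -0.18 ± 0.22 with all. In Slc6a9 an isoform annotated for nonsense-mediated decay took 66.8% of the footprints, and the difference was 0.46 without such isoforms. Mthfd2 lost its call there (0.57 with all isoforms, 0.10 with protein-coding ones, adjusted p = 0.286). For Slc7a11 and Slc7a3 the differences with protein-coding isoforms were -1.33 and 1.85. The footprint log2 fold change of Slc7a11 between genotypes was -0.10 there, against 0.12 with all isoforms. The footprint log2 fold change of Atf3 between genotypes lay between 0.87 and 1.58 over the 18 alternatives.

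**Figure D5:**
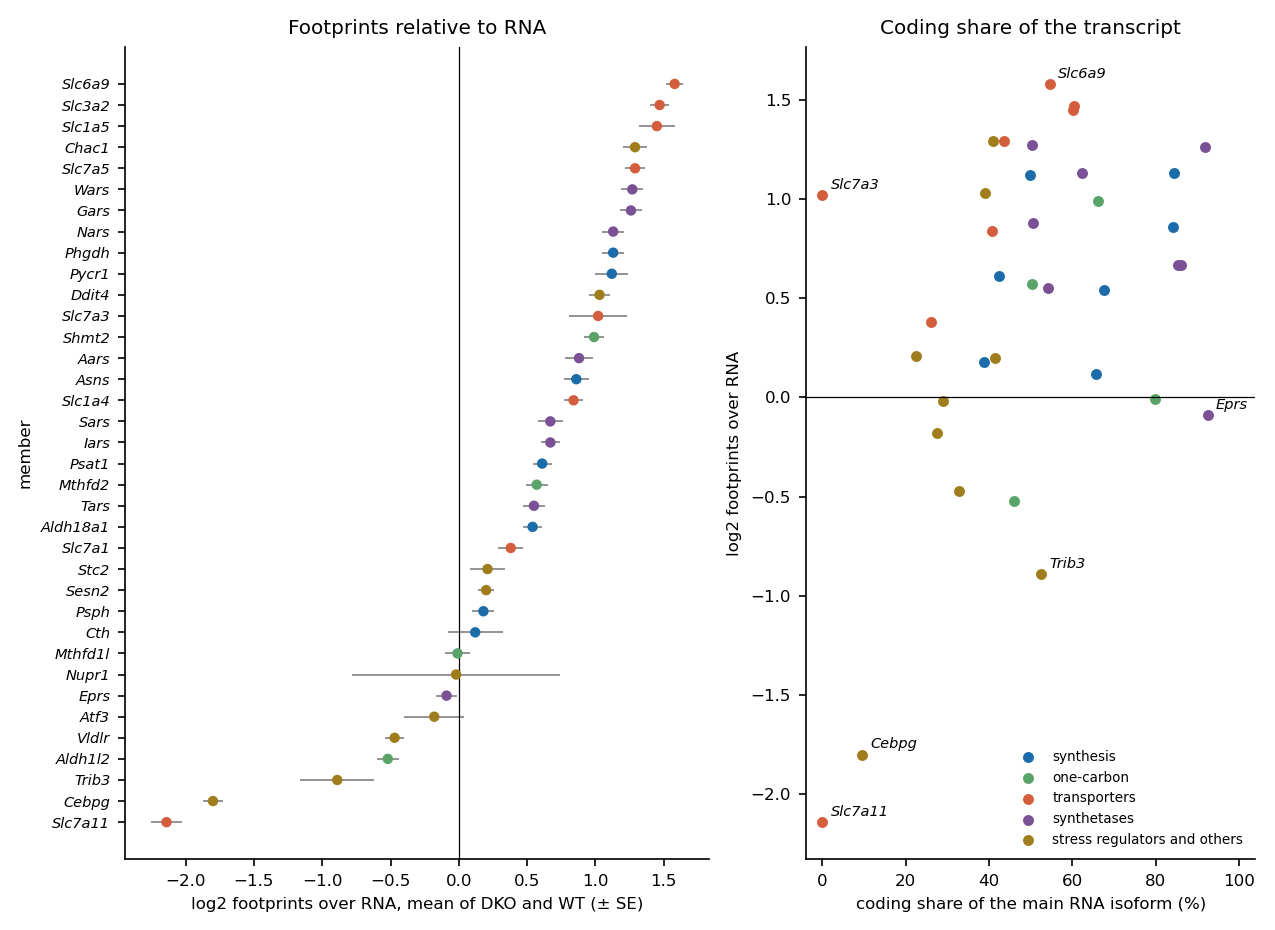
Log2 footprints over RNA, mean of DKO and WT, for each member (left, ±1 SE) and against the coding share in percent of its main RNA isoform (right), coloured by role. Slc7a11 and Cebpg lie lowest, at -2.14 and -1.80, and hold 0% and 9.6% coding sequence, while Slc7a3, also at 0%, lies at 1.02.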

How the data were processed

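The 8 libraries are of ribosome footprints or total RNA, 2 in each of 4 groups. The deposited values are estimated counts per transcript; kallisto, Bowtie, Trimmomatic and FastQC are the tools named, per the submitters' processing notes. Tool versions, strand setting, transcript set and build were not given in the sources used here. Since kallisto shares reads among isoforms and similar genes, genes with near-identical copies or overlapping neighbours are uncertain. The estimated counts were deposited as whole numbers and needed no rounding. Of 60528 transcripts, 60444 matched GENCODE M21 and were summed to 18301 genes.

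In R 4.3.3, edgeR 4.0.16 (with limma 3.58.1) fitted 1 quasi-likelihood model with 4 group means, TMM scaling and 4 residual degrees of freedom to the 12898 genes that passed filterByExpr (minimum count 10) in both assays; 5403 were not tested. DKO was set against WT within footprints, within RNA and in the difference of the 2 assays, and footprints against RNA over both genotypes. Calls were made at a Benjamini-Hochberg adjusted p under 0.05 over all genes tested. CPM are TMM-scaled counts, and values after ± are SEs of log2 fold changes. The model takes the libraries of a culture as independent. Coding shares, promoter matches and summaries used Python 3.11.15, pandas 2.3.3 and scipy 1.17.1. The scripts were tested on simulated data.

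The members and lists were chosen with earlier results of these data known. Values per library are given for called members; in each role group for the 3 smallest footprint and 2 smallest RNA p; for the 2 highest and lowest in footprints minus RNA; Trib3, Phgdh, Cth and Nupr1 were added after their values were seen. Footprint and RNA libraries of 1 genotype and number were taken as 1 culture from their codes, which differ in spelling for DKO replicate 2; across genes, the correlation of replicate differences in footprints with those in RNA was 0.605 for WT and 0.211 for DKO. Alternatives were RLE scaling, no filter, DESeq2 1.42.0, protein-coding isoforms alone, replicate blocks, a fit of 1 assay alone, and fits without each library or culture in turn.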

Additional observations from a re-analysis of the deposited data

How the results depend on the processing

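No member was called in the main fit, so the list's direction is given as a description and tests nothing. The members share the same cultures and were chosen with earlier results known, and the alternatives reuse the same libraries. Members above 0 numbered 30 to 35 of 36 in footprints and 27 to 33 in RNA over 18 alternatives, and 28 members kept their sign in all of them in each assay. Genes called in footprints (1) were 3 with no filter and 5 with DESeq2, and members called higher 1 with DESeq2. Leaving out 1 library gave 0 to 9 genes and 1 culture 0 to 520 genes (520 without WT replicate 1), 0 to 4 members and medians of 0.16 to 0.30. Genes called in RNA (2) were 6 with no filter, 13 with DESeq2, 1 with the assay alone and 0 with a replicate block by number; leaving out 1 library gave 0 to 7 genes and 1 culture 0 to 473 genes (473 without WT replicate 1), 0 to 1 member and medians of 0.15 to 0.23. The RNA median (0.15) was 0.17 with RLE scaling and with DESeq2, and 0.20 with protein-coding isoforms. For translational efficiency, DESeq2 called 1 gene and protein-coding isoforms gave 2; leave-outs gave 0 to 1 gene and medians of 0.00 to 0.20. The cause of these shifts was not tested. For footprints minus RNA the median (0.64) was 0.56 with protein-coding isoforms, where Aldh18a1 was reversed at -0.85, and without the filter the median of all genes was -0.12.

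WT and DKO cultures share only a number: their replicate differences correlated at -0.132 in footprints and -0.128 in RNA across genes. With that number as a replicate block, 32 members were above 0 in footprints with a median of 0.21, and 0 were called. With the culture as a replicate block, 25 members were called higher in footprints than in RNA and 5 lower, and Psph alone changed its call. With 2 libraries a group, the members' footprint log2 fold changes had a median SE of 0.11. Differences near 0.20 were not called after adjustment over 12898 genes, and neither were much larger ones. Slc7a3 at 1.34 ± 0.30, Atf3 at 1.14 ± 0.32 and Asns at 0.52 ± 0.13 each had an edgeR adjusted p of 0.836.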
